A study of Mus musculus with 12 samples.

Results

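The 32 genes described here encode the assembly machinery of the peroxisome and the enzymes and transporters of peroxisomal fatty acid oxidation. They were taken by gene name from a list of peroxins (the Pex proteins), acyl-CoA oxidases and other peroxisomal lipid enzymes and transporters. All 32 were found among the 54532 genes of the deposited count table, and 31 of them had enough reads to be among the 14277 genes tested. RNA came from whole livers of 12 male mice in 4 groups of 3. All mice carried loxP sites in the promoter and intron 1 of Slc25a34, a gene of the mitochondrial carrier family. At 2 months of age they received an AAV8 virus with the hepatocyte promoter TBG (thyroxine binding globulin), carrying either Cre (HKO, the hepatocyte knockout) or GFP (WT, the control). After 1 month on chow, the mice stayed on chow or ate a fast-food diet (FFD) for 2 months, and they were fasted for 16 h before the livers were taken. The groups were therefore HKO on FFD, WT on FFD, HKO on chow and WT on chow, and the sources used here do not give the composition of the FFD. The promoter limits Cre to hepatocytes, while the RNA is of the whole organ, so fewer cells of a type and less RNA per cell cannot be told apart in any value below.

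Peroxisomes shorten very long, branched and dicarboxylic fatty acids by beta-oxidation, and bile acid precursors too. Their first oxidation step passes electrons to oxygen and makes hydrogen peroxide, which catalase removes; the shortened acyl groups leave as carnitine esters or free acids for the mitochondria. The organelle has no DNA, so peroxins insert its membrane proteins, import its folded enzymes from the cytosol and divide it. In rodent liver many of these genes are targets of the fatty acid receptor PPARalpha, which fasting activates and after whose ligands, the peroxisome proliferators, the receptor is named.

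The libraries held 12842187 to 24332663 counts, of which the 32 genes took 1.79 to 2.16%. Slc25a34 had 4, 4 and 18 counts in HKO FFD livers, 30, 92 and 67 in WT FFD livers, 4, 13 and 9 in HKO chow livers and 116, 88 and 109 in WT chow livers, so every HKO count lay below every WT count. Over both diets HKO over WT was −3.18 on the log2 scale (adjusted p = 0.004, SE 0.32; quasi-likelihood test of edgeR, Benjamini-Hochberg adjusted over all genes tested). Hepatocyte markers, 8 of 8 detected, summed to 63046 to 68846 CPM (counts scaled to the library total) in HKO FFD, 62147 to 63843 in WT FFD, 69291 to 75597 in HKO chow and 71671 to 79121 in WT chow livers. Of these 8 markers 0 were higher and 2 lower on FFD over both genotypes, with a median log2 fold change of −0.22, and of 8 Kupffer cell markers 5 were higher and 0 lower. Of all tested genes 13.9% were higher and 12.9% lower (26.8% in all). A set of 6 acute phase genes summed to 7042 CPM in WT FFD mouse 2 and to 9532 CPM in WT chow mouse 3, against 2713 to 4701 CPM in the other libraries. HKO chow mouse 2 stood out for the transcripts Adipoq and Muc6. Adipoq, the adipocyte hormone, had 60 counts there, 1 count in HKO FFD mouse 1 and 0 in the other libraries. The mucin Muc6 had 185 counts there, against 1 to 14 elsewhere. A set of 5 gallbladder and gut markers that holds Muc6 summed to 19.8 CPM in that library. The same set summed to 21.9 and 23.0 CPM in WT FFD mice 1 and 3 and to 13.1 to 13.6 CPM in HKO FFD livers. In the remaining libraries it summed to 2.21 to 5.80 CPM. Where a value rested on WT FFD mouse 2, WT chow mouse 3 or HKO chow mouse 2, its value without that library is given below. For some genes only a range of adjusted p that includes that refit is given.

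Per kilobase of exon, the 31 tested genes spanned nearly 3 orders of magnitude (plot of levels by mouse). The scale is RPKM, CPM divided by the exon length in kilobases, and the values are means over the 12 libraries. Highest were the thiolase gene Acaa1b at 1489 and Scp2, a gene of a thiolase and a sterol carrier protein, at 1378 RPKM. Next were catalase (Cat) at 1041, the phytanoyl-CoA hydroxylase Phyh at 973 and the bifunctional enzyme Ehhadh at 653. The second bifunctional enzyme Hsd17b4 (231), Ech1 (189), Crot (177), Decr2 (152) and the transporter Abcd3 (123.3) followed. Of the assembly genes Pex11a, which elongates and divides peroxisomes, was highest at 85.4 RPKM, then Pex16 (49.97), Pex5 (46.0), Pex19 (44.7) and Pex6 (34.1). At the low end stood Acox3 (2.68), Pex10 (2.15) and the transporter Abcd2 (1.85). Eci3, a paralog of the enoyl-CoA isomerase Eci2, had 2 counts in WT FFD mouse 1, 1 count in WT FFD mouse 3 and 0 in the other 10 libraries, and was not tested.

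**Figure D1:**
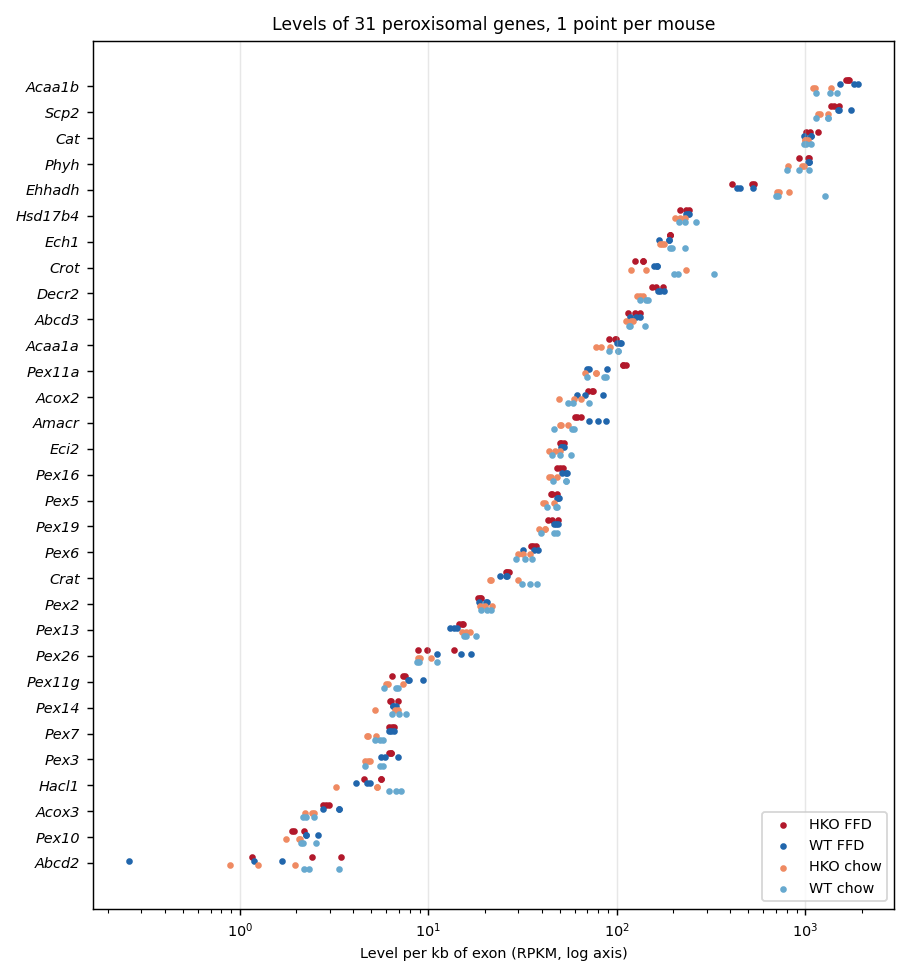
Level of each of the 31 tested peroxisomal genes in each of the 12 mice, as RPKM on a log axis, with genes ordered by their mean and colours for the 4 groups. Acaa1b, Scp2, Cat and Phyh averaged between 973 and 1489 RPKM, while Acox3, Pex10 and Abcd2 averaged below 3 RPKM; the 3 WT chow points of Ehhadh include 1 far above the others.

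Some of these levels depend on how reads were shared between similar or overlapping genes. The 2 mouse 3-ketoacyl-CoA thiolases, which cleave the shortened chain in the last step of the cycle, are the clearest case. Acaa1a (chromosome 9, 119339676 to 119350299, plus strand) and Acaa1b (chromosome 9, 119148023 to 119157093, minus strand) are near copies on mm10. The longest open reading frames of their GENCODE M21 transcripts, 1275 bases each, differed at 44 bases, were 96.5% identical and shared an unbroken run of 327 bases. The stretch from base 460 to base 549 of the reading frame held the most differences, 13 in 90 bases, and is shown 5′ to 3′ with the bases that differ in capitals:
Acaa1a: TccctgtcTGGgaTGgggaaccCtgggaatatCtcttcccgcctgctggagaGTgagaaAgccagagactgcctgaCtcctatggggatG
Acaa1b: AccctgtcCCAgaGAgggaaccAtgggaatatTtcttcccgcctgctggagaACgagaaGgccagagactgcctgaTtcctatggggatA
Reads that cover such a stretch can be placed, and reads wholly inside a shared run cannot. Of all 50-base words in their transcripts, 17.1% of those of Acaa1a and 39.6% of those of Acaa1b occurred in another gene, most often in the other thiolase. Shared words also made up 29.7% for Scp2 (most often with Scp2-ps2), 30.1% for Hacl1 (Gm49387 on the same strand), 39.2% for Pex11g (Gm44775 on the opposite strand), 25.2% for Pex14 (Gm17029, opposite strand) and 11.1% for Eci2 (Eci3). Reads wholly inside such shared sequence cannot be assigned by sequence alone, so the levels of these genes are uncertain. The strand setting of the counting is not given in the sources used here, so reads of Pex11g and Pex14 cannot be told apart from those of their opposite-strand partners.

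The first question was how these genes differed between the fast-food diet and chow. In the column headers of the count table the FFD libraries carry one run of library numbers and the chow libraries a later one. The number of WT chow mouse 3 stands apart from those of the other chow libraries. What the numbers stand for is not given there, so diet and number series cannot be told apart in any FFD over chow value. Over both genotypes, 10 of the 31 genes rose on FFD and 3 fell by edgeR's quasi-likelihood test at a Benjamini-Hochberg adjusted p below 0.05, against 13.9% of all tested genes higher and 12.9% lower (26.8% in all). Pex7, Pex3, Pex26, Pex11a and Pex11g of the assembly machinery and Acox3, Acaa1b, Scp2, Decr2 and Amacr of the oxidation enzymes rose, and Ehhadh, Crot and Pex13 fell. The changes were modest: the largest rise was 1.36-fold, for Acaa1b, and the largest fall 1.72-fold, for Ehhadh. The median log2 fold change of the 31 genes was 0.10, against −0.01 over all tested genes, and 22 were above 0, where 48.7% of all tested genes were. In 6 genes every FFD library lay above every chow library and in 1 gene below, where 6.57% and 4.78% of all tested genes did so. Within HKO mice 5 genes rose and 0 fell, 16.1% of the 31 against 13.6% of all tested genes (7.46% higher and 6.12% lower), a share near the background. Within WT mice 6 rose and 4 fell, 32.3% against 14.9% (8.24% higher and 6.61% lower). The 3 FFD livers lay above the 3 chow livers in 13 of the 31 genes in HKO mice and below them in 1, where 17% and 16.5% of all tested genes did so. In WT mice they lay above in 8 genes and below in 7, against 16.7% and 15.9%. DESeq2 called 14 of the 31 over both genotypes, 6 in HKO and 13 in WT mice, where it called 28.3%, 16.3% and 17.1% of all genes. The comparisons in HKO and in WT mice use different livers, and that over both genotypes uses them all. The count over both genotypes was 8 without HKO FFD mouse 1 or HKO chow mouse 3. The count in HKO mice was 2 without HKO FFD mouse 1 or 2 or HKO chow mouse 3 and 3 without HKO chow mouse 1. The count in WT mice was 5, 6 and 3 without WT FFD mouse 1, 2 and 3, and 6, 4 and 5 without WT chow mouse 1, 2 and 3. These refit counts stand without the share of all genes called in the same refits. They do not show whether the 31 genes moved more than others. Of the 13 calls over both genotypes 8, those of Pex7, Acox3, Ehhadh, Amacr, Decr2, Acaa1b, Pex3 and Scp2, held in all 18 alternatives, which included leaving out each library.

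**Figure D2:**
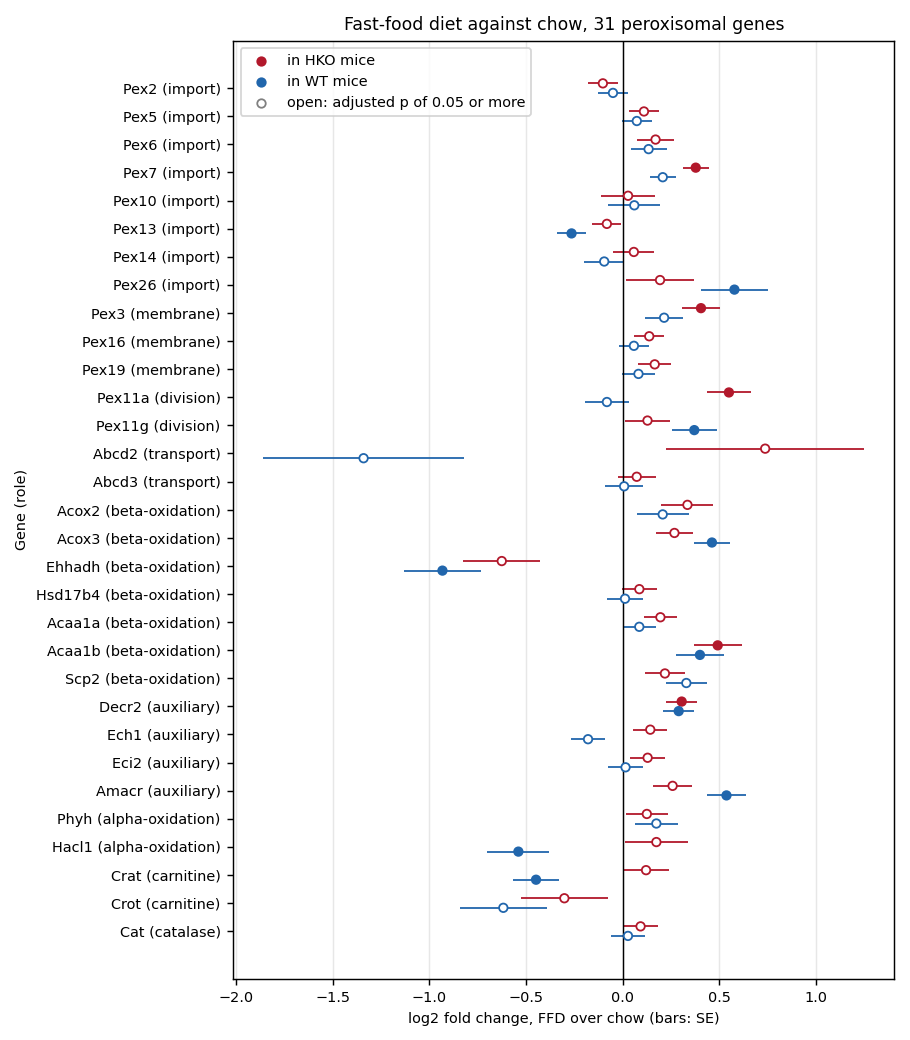
Log2 fold change of FFD over chow for the 31 genes, in order of role, in HKO mice (red) and WT mice (blue), with the standard error as a bar and filled points for a Benjamini-Hochberg adjusted p below 0.05. Most points lie right of 0, Decr2 and Acaa1b are filled in both genotypes, and Ehhadh lies left of 0 in both, filled in WT.

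Among the 8 genes of matrix protein import, Pex7 and Pex26 rose over both genotypes, Pex13 fell and 5 did not pass. Pex7 is the receptor that brings in the few enzymes with an amino-terminal targeting signal, thiolase among them. It had 75.3, 77.9 and 79.5 CPM in HKO FFD and 76.6, 79.3 and 74.8 CPM in WT FFD livers. The chow livers had 57.9, 57.4 and 63.8 CPM in HKO and 67.3, 69.3 and 63.3 CPM in WT mice. Every FFD library lay above every chow library. The log2 fold changes were 0.29 (adjusted p = 0.00088, SE 0.05) over both genotypes, 0.38 (adjusted p = 0.0041, SE 0.07) in HKO and 0.21 (adjusted p = 0.06, SE 0.07) in WT mice. Pex13, a docking protein for the loaded receptors, had 67.4, 70.8 and 70.3 CPM in HKO FFD and 66.2, 63.3 and 60.4 CPM in WT FFD livers. Levels on chow were 70.4, 77.1 and 73.3 CPM in HKO and 71.6, 73.5 and 83.1 CPM in WT livers. Its WT groups did not overlap, its HKO groups did, and its log2 fold change was −0.17 (adjusted p = 0.027, SE 0.05) over both genotypes, −0.26 (adjusted p = 0.032, SE 0.07) in WT and −0.08 (adjusted p = 0.52, SE 0.07) in HKO mice. Pex26 anchors the receptor-recycling ATPases in the membrane and had 77.2, 50.2 and 56.0 CPM in HKO FFD and 63.2, 85.1 and 95.6 CPM in WT FFD livers. Chow values were 58.9, 51.5 and 49.998 CPM in HKO and 50.9, 49.6 and 63.1 CPM in WT livers. WT FFD mice 2 and 3 and HKO FFD mouse 1 were the highest libraries, the lowest WT FFD liver lay just above the highest WT chow liver, and the log2 fold change was 0.38 (adjusted p = 0.034, SE 0.12) over both genotypes, 0.58 (adjusted p = 0.042, SE 0.17) in WT and 0.19 (adjusted p = 0.51, SE 0.17) in HKO mice.

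The Pex7 calls over both genotypes and in HKO mice held in every alternative, while those of Pex13 and Pex26 were close to the threshold. In WT mice the Pex7 value passed with DESeq2 (adjusted p = 0.047). The Pex13 call over both genotypes ended without HKO FFD mouse 1 or 2, WT FFD mouse 2 or 3, HKO chow mouse 2 or 3 or WT chow mouse 3 (adjusted p between 0.051 and 0.071), with no filter on low counts (adjusted p = 0.15) and without both libraries with raised acute phase genes (adjusted p = 0.094). Its call in WT mice ended without WT FFD mouse 2 or 3 or WT chow mouse 2 or 3 (adjusted p between 0.064 and 0.12). It also ended with no filter on low counts (adjusted p = 0.12), with only the WT groups fitted (adjusted p = 0.08) and without both libraries with raised acute phase genes, at −0.20 (adjusted p = 0.19). The Pex26 call over both genotypes ended without HKO FFD mouse 1, WT FFD mouse 2 or 3, HKO chow mouse 2 or 3 or WT chow mouse 1 or 2 (adjusted p between 0.059 and 0.086), and that in WT mice without HKO FFD mouse 3, WT FFD mouse 2 or 3, HKO chow mouse 3 or WT chow mouse 1 or 2 (adjusted p between 0.052 and 0.16). In WT mice it also ended with only the WT groups fitted (adjusted p = 0.052) and without both libraries with raised acute phase genes, at 0.66 (adjusted p = 0.079). The Pex26 value in HKO mice rested on HKO FFD mouse 1, without which it was −0.00473 (adjusted p = 0.99).

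The 5 other import genes had small differences with the diet. Pex5, the receptor for most matrix enzymes, had 182 ± 7.79 CPM in HKO FFD, 192 ± 2.67 CPM in WT FFD, 169 ± 12.4 CPM in HKO chow and 183 ± 11.7 CPM in WT chow livers (SD, n = 3 each). Over both genotypes FFD over chow was 0.09 (adjusted p = 0.25, SE 0.05) on the log2 scale. Pex6, an ATPase that pulls used receptor out of the membrane, had 137 ± 3.91 CPM in HKO FFD, 135 ± 12.6 CPM in WT FFD, 122 ± 9.28 CPM in HKO chow and 123.02 ± 11.9 CPM in WT chow livers. For Pex6 FFD over chow was 0.15 on the log2 scale over both genotypes (adjusted p = 0.11, SE 0.07). Pex14, the second docking protein, had 40.8 ± 2.20 CPM in HKO FFD, 41.2 ± 0.892 CPM in WT FFD, 39.2 ± 5.78 CPM in HKO chow and 44.1 ± 3.93 CPM in WT chow livers. For Pex14 FFD over chow was −0.02 on the log2 scale over both genotypes (adjusted p = 0.87, SE 0.07). The ubiquitin ligase subunits Pex2 and Pex10, which mark the receptor for recycling, had log2 fold changes of −0.08 (adjusted p = 0.34, SE 0.06) and 0.04 (adjusted p = 0.78, SE 0.10), with Pex2 between 41.9 and 49.7 CPM and Pex10 between 5.77 and 8.57 CPM in all libraries.

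Pex3, Pex16 and Pex19 insert peroxisomal membrane proteins: Pex19 is the soluble chaperone, Pex3 its docking site and Pex16 the recruiter of Pex3. Pex3 rose, with 30.2, 30.1 and 29.5 CPM in HKO FFD and 32.7, 26.7 and 28.0 CPM in WT FFD livers. On chow it had 22.6, 21.9 and 23.3 CPM in HKO and 27.2, 21.8 and 26.3 CPM in WT livers. The HKO FFD libraries lay above all 3 HKO chow libraries, and in WT mice FFD mouse 2 lay below chow mouse 1. Its log2 fold change was 0.31 (adjusted p = 0.0065, SE 0.07) over both genotypes, 0.40 (adjusted p = 0.02, SE 0.10) in HKO and 0.21 (adjusted p = 0.18, SE 0.10) in WT mice. The call in HKO mice ended without HKO FFD mouse 1 or 2 or HKO chow mouse 1 or 3 (adjusted p between 0.052 and 0.062). Pex16 had 89.0 ± 3.05 CPM in HKO FFD, 94.2 ± 2.65 CPM in WT FFD, 81.0 ± 4.26 CPM in HKO chow and 90.5 ± 8.06 CPM in WT chow livers. For Pex16 FFD over chow was 0.10 on the log2 scale over both genotypes (adjusted p = 0.21, SE 0.05). Pex19 had 174 ± 10.7 CPM in HKO FFD, 181 ± 4.61 CPM in WT FFD, 155 ± 6.81 CPM in HKO chow and 172 ± 17.3 CPM in WT chow livers. For Pex19 FFD over chow was 0.12 on the log2 scale over both genotypes (adjusted p = 0.15, SE 0.06).

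The peroxisome division genes Pex11a and Pex11g rose over both genotypes, and the difference of their diet response between HKO and WT mice did not pass (adjusted p of the interaction = 0.27 and 0.71). Pex11a, the member of its family that peroxisome proliferators induce, had 343, 342 and 358 CPM in HKO FFD and 226, 222 and 282 CPM in WT FFD livers. The chow livers had 248, 248 and 217 CPM in HKO and 272, 223 and 278 CPM in WT mice. The 3 HKO FFD livers were the highest of all 12, and the WT FFD livers overlapped the WT chow livers. The log2 fold change was 0.55 (adjusted p = 0.0076, SE 0.11) in HKO mice, −0.08 (adjusted p = 0.68, SE 0.11) in WT mice and 0.23 (adjusted p = 0.045, SE 0.08) over both. The call in HKO mice held in all 19 alternatives. The call over both genotypes ended without HKO FFD mouse 1, 2 or 3, WT FFD mouse 3, HKO chow mouse 1 or 3 or WT chow mouse 2 (adjusted p between 0.055 and 0.11). Pex11g, a related membrane protein, had 25.0, 25.4 and 21.9 CPM in HKO FFD and 31.998, 26.6 and 26.9 CPM in WT FFD livers. Levels on chow were 25.1, 20.9 and 20.2 CPM in HKO and 23.0, 19.7 and 23.4 CPM in WT livers. The WT FFD libraries lay above the WT chow libraries and the HKO groups overlapped. FFD over chow was 0.37 (adjusted p = 0.048, SE 0.11) on the log2 scale in WT mice, 0.13 (adjusted p = 0.52, SE 0.12) in HKO mice and 0.25 (adjusted p = 0.039, SE 0.08) over both. Its call in WT mice ended in 14 of 19 alternatives, among them without HKO FFD mouse 1, 2 or 3, WT FFD mouse 1, 2 or 3, HKO chow mouse 2 or 3 or WT chow mouse 1, 2 or 3 (adjusted p between 0.05 and 0.18), and without both libraries with raised acute phase genes it was 0.46 (adjusted p = 0.074). The call over both genotypes ended without HKO FFD mouse 1 or 2, WT FFD mouse 1, HKO chow mouse 2 or 3 or WT chow mouse 2 (adjusted p between 0.075 and 0.095).

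The transporters Abcd2 and Abcd3, which carry acyl-CoAs through the peroxisomal membrane, did not pass with the diet. Abcd3, the abundant one, had 818 ± 55.2 CPM in HKO FFD, 829.5 ± 52.9 CPM in WT FFD, 778 ± 34.4 CPM in HKO chow and 826 ± 97.0 CPM in WT chow livers. For Abcd3 FFD over chow was 0.04 on the log2 scale over both genotypes (adjusted p = 0.72, SE 0.07). Abcd2 had 14.4, 20.4 and 6.88 CPM in HKO FFD and 7.08, 9.98 and 1.54 CPM in WT FFD livers. Chow values were 5.31, 11.7 and 7.48 CPM in HKO and 13.003, 20.0 and 13.9 CPM in WT livers. The lowest library was WT FFD mouse 3 and the highest HKO FFD mouse 2, and the log2 fold change was −1.34 (adjusted p = 0.11, SE 0.52) in WT mice, whose groups did not overlap, and 0.74 (adjusted p = 0.38, SE 0.51) in HKO mice. Without WT FFD mouse 3 the WT value was −0.87 (adjusted p = 0.23), and without HKO FFD mouse 2 the HKO value was 0.35 (adjusted p = 0.77). The WT value passed with no filter on low counts (adjusted p = 0.00057) and with a replicate block (adjusted p = 0.028).

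In the core of the beta-oxidation cycle 3 of 7 genes rose and 1 fell over both genotypes. The fall was that of Ehhadh, whose enzyme carries out the hydration and dehydrogenation steps on straight chains and dicarboxylic acids. The gene lies on chromosome 16, 21761287 to 21787807, on the minus strand (mm10). Ehhadh had 1548, 1227 and 1599 CPM in HKO FFD and 1343, 1295 and 1567 CPM in WT FFD livers. On chow it had 2123, 2453 and 2173 CPM in HKO and 2092, 2136 and 3795 CPM in WT livers. All 6 FFD livers lay below all 6 chow livers, and WT chow mouse 3, which also had raised acute phase genes, was the highest. The log2 fold change was −0.78 (adjusted p = 0.0017, SE 0.14) over both genotypes, −0.93 (adjusted p = 0.0093, SE 0.20) in WT mice and −0.63 (adjusted p = 0.057, SE 0.20) in HKO mice. Without WT chow mouse 3 it was −0.60 in WT mice (adjusted p = 0.014) and −0.61 over both genotypes (adjusted p = 0.0005). The value in HKO mice passed the threshold in 7 of 19 alternatives. It passed without WT chow mouse 1 or 3 (adjusted p = 0.043 and 0.0048) and without both libraries with raised acute phase genes (adjusted p = 0.0048). It also passed with only the HKO groups fitted (adjusted p = 0.014) and with no filter on low counts (adjusted p = 0.00094). The others were a replicate block (adjusted p = 0.038) and DESeq2 (adjusted p = 0.015). Hsd17b4, the other bifunctional enzyme, which acts on branched chains and bile acid precursors, had 783 ± 40.9 CPM in HKO FFD, 813 ± 14.1 CPM in WT FFD, 738 ± 44.1 CPM in HKO chow and 806 ± 85.5 CPM in WT chow livers. For Hsd17b4 FFD over chow was 0.05 on the log2 scale over both genotypes (adjusted p = 0.62, SE 0.06).

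Of the genes that make thiolases for the end of the cycle Acaa1b and Scp2 rose and Acaa1a did not pass. Acaa1b had 3355, 3326 and 3233 CPM in HKO FFD and 3545, 2996 and 3739.8 CPM in WT FFD livers. The chow livers had 2217, 2682 and 2157 CPM in HKO and 2903, 2231 and 2663 CPM in WT mice. All 6 FFD livers lay above all 6 chow livers. FFD over chow on the log2 scale was 0.44 (adjusted p = 0.0028, SE 0.09) over both genotypes, 0.49 (adjusted p = 0.022, SE 0.12) in HKO and 0.40 (adjusted p = 0.049, SE 0.12) in WT mice. The call in HKO mice ended without HKO FFD mouse 1 or 2 or HKO chow mouse 1 or 3 (adjusted p between 0.065 and 0.092). The call in WT mice ended in 12 of 19 alternatives, among them without HKO FFD mouse 1, 2 or 3, WT FFD mouse 1 or 3, HKO chow mouse 1 or 3 or WT chow mouse 2 or 3 (adjusted p between 0.06 and 0.18), with RLE size factors (adjusted p = 0.052) and with only the WT groups fitted (adjusted p = 0.11). Its near copy Acaa1a had 432, 439 and 403 CPM in HKO FFD and 445, 460.2 and 468 CPM in WT FFD livers. Levels on chow were 366, 405 and 343 CPM in HKO and 447, 399.9 and 447 CPM in WT livers. These groups overlapped in both genotypes, and the diet value was 0.14 (adjusted p = 0.1, SE 0.06), or 0.17 (adjusted p = 0.044) without HKO chow mouse 2. Scp2 makes both a thiolase for branched chains and the small sterol carrier protein, which counts per gene do not separate. It had 5231, 4928 and 4749.9 CPM in HKO FFD and 6093, 5277 and 5209 CPM in WT FFD livers. Chow values were 4151, 4617 and 4051 CPM in HKO and 4625, 3953 and 4625 CPM in WT livers. All 6 FFD livers lay above all 6 chow livers. FFD over chow on the log2 scale was 0.27 (adjusted p = 0.016, SE 0.07) over both genotypes, 0.33 (adjusted p = 0.053, SE 0.10) in WT and 0.22 (adjusted p = 0.19, SE 0.10) in HKO mice. The WT value passed without HKO chow mouse 2, at 0.33 (adjusted p = 0.043). It also passed with no filter on low counts (adjusted p = 0.036) and with DESeq2 (adjusted p = 0.0096).

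Ehhadh and Acaa1b, with the largest fall and the largest rise of the 13 calls, are both known PPARalpha targets in rodents, and their sequences before the transcription start are shown for that reason. Each is the 250 bases before the RefSeq start on GRCm38.p6, 5′ to 3′ on the gene's strand, which is minus for both. The Ehhadh stretch is chr16:21787835-21788084 and the Acaa1b stretch chr9:119157094-119157343.
Ehhadh: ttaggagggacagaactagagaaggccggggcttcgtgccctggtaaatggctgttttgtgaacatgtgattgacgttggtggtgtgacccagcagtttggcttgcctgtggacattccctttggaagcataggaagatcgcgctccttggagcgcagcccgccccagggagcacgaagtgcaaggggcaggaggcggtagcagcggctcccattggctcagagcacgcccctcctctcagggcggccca
Acaa1b: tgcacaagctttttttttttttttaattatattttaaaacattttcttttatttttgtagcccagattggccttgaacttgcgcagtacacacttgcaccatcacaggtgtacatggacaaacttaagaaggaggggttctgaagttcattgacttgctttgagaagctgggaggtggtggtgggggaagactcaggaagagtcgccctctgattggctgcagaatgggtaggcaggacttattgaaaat
Windows of 250 bases before to 50 after the start were found for 26 of the 32 genes, 31 windows in all. The letters AGGTCA, then any base (N) and AGGTCA again, the repeat that PPARalpha and its partner RXR bind, were searched on both strands with up to 2 mismatches. A match was in 2 of the 31 windows (6.45%) and in 3.86% of all 32851 RefSeq windows of that length, and neither the Ehhadh nor the Acaa1b windows held one. The 2 matches lay in Acox2, 10 bases after the start (AGGACAGAGGTGA), and in Cat. The 31 windows had a median of 57.3% G and C and 14 CpG pairs, against 52.7% and 7 over all windows. A match is a description of letters only, and bases outside these windows were not searched.

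The acyl-CoA oxidases Acox2 and Acox3 start the cycle on bile acid precursors and branched fatty acids. Acox3 had 34.1, 32.9 and 31.8 CPM in HKO FFD and 39.0, 32.03 and 38.6 CPM in WT FFD livers. On chow it had 28.0, 25.7 and 28.4 CPM in HKO and 25.8, 28.7 and 25.0 CPM in WT livers. All 6 FFD livers lay above all 6 chow livers. FFD over chow on the log2 scale was 0.36 (adjusted p = 0.0017, SE 0.07) over both genotypes, 0.46 (adjusted p = 0.0068, SE 0.09) in WT and 0.27 (adjusted p = 0.079, SE 0.09) in HKO mice. The HKO value passed without both libraries with raised acute phase genes (adjusted p = 0.046). Acox2 had 270.3 ± 7.17 CPM in HKO FFD, 264 ± 43.2 CPM in WT FFD, 214 ± 29.3 CPM in HKO chow and 229 ± 31.97 CPM in WT chow livers. For Acox2 FFD over chow was 0.27 on the log2 scale over both genotypes (adjusted p = 0.052, SE 0.09), just outside the threshold.

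**Figure D3:**
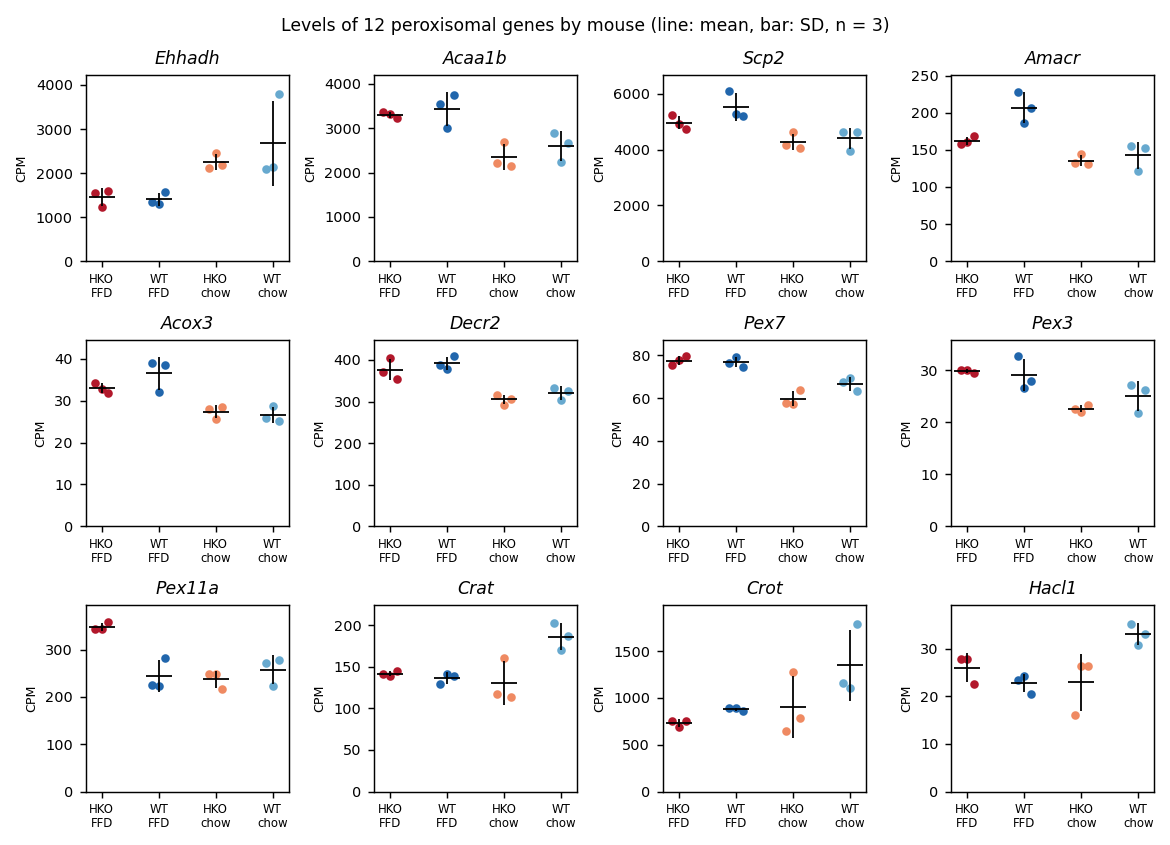
CPM of 12 of the genes in each mouse, by group, with the group mean as a line and the SD as a bar (n = 3), each axis starting at 0. Ehhadh is lower and Acaa1b, Acox3, Decr2 and Pex7 are higher in all 6 FFD than in all 6 chow livers, Pex11a is highest in the HKO FFD livers, and HKO chow mouse 2 stands above the other HKO chow livers for Crat and Crot.

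Of the auxiliary enzymes, which prepare unsaturated or methyl-branched chains for the cycle, 2 of 4 tested genes rose. Decr2, the peroxisomal dienoyl-CoA reductase, had 371, 404 and 354 CPM in HKO FFD and 388, 377 and 409 CPM in WT FFD livers. The chow livers had 316, 292 and 306 CPM in HKO and 333, 303 and 326 CPM in WT mice. All 6 FFD livers lay above all 6 chow livers. FFD over chow on the log2 scale was 0.30 (adjusted p = 0.002, SE 0.06) over both genotypes, 0.30 (adjusted p = 0.024, SE 0.08) in HKO and 0.29 (adjusted p = 0.028, SE 0.08) in WT mice. The call in HKO mice ended without HKO FFD mouse 1 or 2 or HKO chow mouse 2 or 3 (adjusted p between 0.059 and 0.11), and that in WT mice without WT FFD mouse 1 or 3 or WT chow mouse 2 (adjusted p between 0.067 and 0.11). In WT mice it also ended with no filter on low counts (adjusted p = 0.074), with only the WT groups fitted (adjusted p = 0.076) and without both libraries with raised acute phase genes, at 0.33 (adjusted p = 0.058). Amacr, a racemase that turns the methyl branch of pristanoyl-CoA and bile acid precursors, had 157, 159.9 and 168 CPM in HKO FFD and 227, 186 and 207 CPM in WT FFD livers. Levels on chow were 132, 144 and 130.2 CPM in HKO and 155, 121 and 152 CPM in WT livers. All 6 FFD livers lay above all 6 chow livers, the WT FFD livers being highest, with log2 fold changes of 0.40 (adjusted p = 0.0017, SE 0.07) over both genotypes, 0.54 (adjusted p = 0.0052, SE 0.10) in WT and 0.26 (adjusted p = 0.12, SE 0.10) in HKO mice. The HKO value of Amacr passed with only the HKO groups fitted (adjusted p = 0.049). The isomerase Eci2 had 284 ± 7.67 CPM in HKO FFD, 285 ± 6.44 CPM in WT FFD, 259 ± 18.6 CPM in HKO chow and 282 ± 33.3 CPM in WT chow livers. For Eci2 FFD over chow was 0.07 on the log2 scale over both genotypes (adjusted p = 0.45, SE 0.06). Ech1, a dienoyl-CoA isomerase of peroxisomes and mitochondria, had 439, 438 and 439.5 CPM in HKO FFD and 383, 435 and 432 CPM in WT FFD livers. Chow values were 388, 407 and 397 CPM in HKO and 439, 448 and 528 CPM in WT livers. Its FFD livers lay above the chow livers in HKO mice and below them in WT mice, with log2 fold changes of 0.14 (adjusted p = 0.31, SE 0.09) and −0.18 (adjusted p = 0.19, SE 0.09). Without WT chow mouse 3 the WT value was −0.094 (adjusted p = 0.49).

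Of the alpha-oxidation pair, which shortens phytanic acid by a single carbon, Hacl1 fell in WT mice. The lyase Hacl1 had 27.7, 27.8 and 22.5 CPM in HKO FFD and 23.4, 24.2 and 20.6 CPM in WT FFD livers. On chow it had 16.1, 26.3 and 26.4 CPM in HKO and 35.3, 30.7 and 33.2 CPM in WT livers. The WT FFD libraries lay below all 3 WT chow libraries, the HKO groups overlapped, and the log2 fold change was −0.54 (adjusted p = 0.041, SE 0.16) in WT and 0.17 (adjusted p = 0.53, SE 0.16) in HKO mice. The call ended in 10 of 19 alternatives, among them without HKO FFD mouse 1 or 2, WT FFD mouse 1, 2 or 3 or WT chow mouse 1, 2 or 3 (adjusted p between 0.053 and 0.14), and without both libraries with raised acute phase genes it was −0.58 (adjusted p = 0.11). Without HKO chow mouse 1 the value was −0.0202 (adjusted p = 0.94) in HKO mice and −0.28 (adjusted p = 0.023) over both genotypes, where it was −0.18 (adjusted p = 0.26, SE 0.11) with that library. Phyh, the hydroxylase of the first step, had 1898 ± 129 CPM in HKO FFD, 1977 ± 21.8 CPM in WT FFD, 1741 ± 174 CPM in HKO chow and 1753 ± 225 CPM in WT chow livers. For Phyh FFD over chow was 0.15 on the log2 scale over both genotypes (adjusted p = 0.18, SE 0.08).

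The carnitine transferases Crat and Crot make the short and medium-chain carnitine esters that leave the peroxisome, and both had lower values on FFD in WT mice. Crat had 141, 139 and 145 CPM in HKO FFD and 129, 141 and 139 CPM in WT FFD livers. The chow livers had 117, 161 and 114 CPM in HKO and 203, 169.6 and 187 CPM in WT mice. The WT FFD libraries lay below the WT chow libraries, and the HKO groups overlapped because HKO chow mouse 2 stood above all 3 HKO FFD livers. The log2 fold change was −0.45 (adjusted p = 0.025, SE 0.12) in WT, 0.12 (adjusted p = 0.56, SE 0.12) in HKO and −0.16 (adjusted p = 0.17, SE 0.08) over both. The call in WT mice ended without WT FFD mouse 1 or 3 or WT chow mouse 1 or 3 (adjusted p between 0.054 and 0.082), and without both libraries with raised acute phase genes, at −0.47 (adjusted p = 0.082). In HKO mice the value passed without HKO chow mouse 2, at 0.30 (adjusted p = 0.043). Crot had 755, 686 and 753 CPM in HKO FFD and 891, 888 and 856 CPM in WT FFD livers. Levels on chow were 646, 1276 and 782 CPM in HKO and 1155, 1102 and 1786 CPM in WT livers. Its WT groups did not overlap, WT chow mouse 3 was the highest library and HKO chow mouse 2 stood apart from the other HKO chow livers. The log2 fold change was −0.46 (adjusted p = 0.047, SE 0.16) over both genotypes, −0.62 (adjusted p = 0.085, SE 0.22) in WT and −0.30 (adjusted p = 0.42, SE 0.22) in HKO mice. The call over both genotypes ended in 11 of 18 alternatives: it was −0.29 without HKO chow mouse 2 (adjusted p = 0.088) and −0.33 without WT chow mouse 3 (adjusted p = 0.11), and it also ended without HKO FFD mouse 1, 2 or 3, WT FFD mouse 1, 2 or 3 or HKO chow mouse 3 (adjusted p between 0.052 and 0.1) and without both libraries with raised acute phase genes (adjusted p = 0.15). In HKO mice the value was 0.0374 (adjusted p = 0.92) without HKO chow mouse 2. In WT mice it was −0.36 (adjusted p = 0.3) without WT chow mouse 3, −0.37 (adjusted p = 0.38) without both libraries with raised acute phase genes, and past the threshold without HKO chow mouse 2, at −0.62 (adjusted p = 0.02). The WT value of Crot also passed with no filter on low counts (adjusted p = 0.0017) and with DESeq2 (adjusted p = 0.036).

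Catalase, which removes the hydrogen peroxide that the oxidases make, stayed within a narrow range. Cat had 2825 ± 212 CPM in HKO FFD, 2727 ± 136 CPM in WT FFD, 2651 ± 58.7 CPM in HKO chow and 2677 ± 116 CPM in WT chow livers. Its log2 fold changes were 0.06 (adjusted p = 0.52, SE 0.06) with the diet and 0.02 (adjusted p = 0.94, SE 0.06) with the knockout. Its window before the start is printed as the second of those with a match to the PPARalpha motif, shown in capitals, 204 bases before the start. The stretch is chr2:103485154-103485403 on GRCm38.p6 from RefSeq, read 5′ to 3′ on the minus strand.
Cat: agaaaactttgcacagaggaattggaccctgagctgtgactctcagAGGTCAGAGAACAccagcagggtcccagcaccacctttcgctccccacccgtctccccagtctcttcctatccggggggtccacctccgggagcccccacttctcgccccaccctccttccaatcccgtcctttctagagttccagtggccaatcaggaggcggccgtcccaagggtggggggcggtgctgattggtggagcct

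Acute phase genes were raised in 1 WT library of each diet, and the diet counts without both of them were 12 of 31 over both genotypes, 7 in HKO mice and 4 in WT mice. These counts too stand without the share of all genes called in that refit. Of 5 adipose markers 1, the protease gene Cfd, had enough reads to be tested. It had 413 to 2801 counts in the FFD livers, against 307 in HKO chow mouse 2 and 2 to 9 in the other chow livers, while Adipoq was at 0 or 1 count in all 6 FFD livers. The fall of 2 of 8 hepatocyte markers and the rise of 5 of 8 Kupffer cell markers on FFD stand beside the diet results, and their part in them was not tested. Of all tested genes 12.9% fell and 13.9% rose (26.8% in all).

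The second question was how these genes differed where hepatocytes had lost Slc25a34. By edgeR's quasi-likelihood test 0 of the 31 passed on FFD, on chow or over both diets, where 0.007%, 0.021% and 0.035% of all tested genes did. At an unadjusted p below 0.05 there were 4 on FFD (12.9% of the 31, against 9.34% of all tested genes), 6 on chow (19.4% against 11.8%) and 7 over both diets (22.6% against 12.2%). DESeq2 called 1 on FFD, Pex11a, 1 on chow, Crat, and 0 over both diets, where it called 0.974%, 0.939% and 1.61% of all genes. On chow 30 of the 31 had a log2 fold change below 0, 96.8% against 49.6% of all tested genes, with a median of −0.12 against 0.00193. On FFD 19 of 31 were below 0, with a median of −0.05, against 50.4% of all genes with a median of −0.00167. Summed over the 32 genes, the level was 19641 to 20730 CPM in HKO FFD, 20289 to 21734 in WT FFD, 17925 to 19936 in HKO chow and 18410 to 22064 CPM in WT chow livers, and the groups overlapped within each diet. Without HKO chow mouse 2 the counts were 0 on FFD, 2 on chow and 2 over both diets, and with no filter on low counts 2, 3 and 1. In this paragraph these refit counts stand without the share of all genes called in the same refits. They do not show whether the 31 genes differed more than others. Whether the genes vary together was not tested, so the share below 0 is only a description of these libraries. The median on chow lay between −0.18 and −0.08 when each library was left out.

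**Figure D4:**
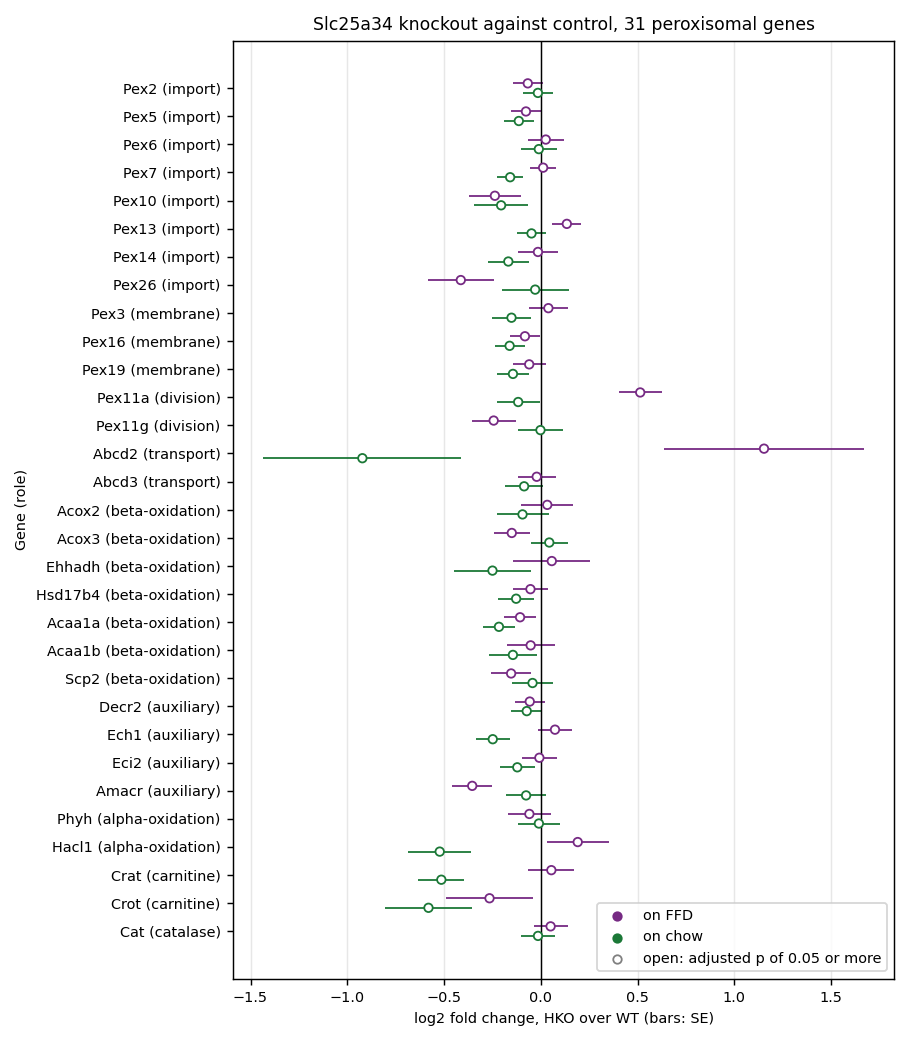
Log2 fold change of HKO over WT for the 31 genes on FFD (purple) and on chow (green), with the standard error as a bar. All points are open, since 0 passed at a Benjamini-Hochberg adjusted p of 0.05, and on chow every point but that of Acox3 lies left of 0.

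On FFD the smallest p was that of Pex11a, with per-mouse levels given above: the 3 HKO livers lay between 342 and 358 CPM, above the 3 WT livers between 222 and 282 CPM. The log2 fold change was 0.51 (adjusted p = 0.17, SE 0.11). Amacr had 157, 159.9 and 168 CPM in HKO FFD and 227, 186 and 207 CPM in WT FFD livers, without overlap, and −0.35 (adjusted p = 0.27, SE 0.10). Pex26 had −0.41 (adjusted p = 0.47, SE 0.17), with HKO mouse 1 inside the WT range; the value was −0.61 without that library and −0.28 without WT FFD mouse 3. Abcd2 had 1.15 (adjusted p = 0.52, SE 0.52), with overlapping groups, and stood at 0.69 without WT FFD mouse 3 and 0.76 without HKO FFD mouse 2. Pex11g had −0.24 (adjusted p = 0.54, SE 0.11), without overlap, and stood at −0.15 (adjusted p = 0.79) without WT FFD mouse 1. In 3 of the 31 genes, Pex13, Pex11a and Ech1, every HKO FFD library lay above every WT FFD library, and in 5, Pex10, Pex11g, Acaa1a, Amacr and Crot, below, where 8.08% and 8.37% of all tested genes did so.

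On chow the smallest p was that of Crat, with 117, 161 and 114 CPM in HKO chow and 203, 169.6 and 187 CPM in WT chow livers. These groups did not overlap, and the log2 fold change was −0.51 (adjusted p = 0.18, SE 0.12). Hacl1 had −0.52 (adjusted p = 0.25, SE 0.16), also without overlap, Ech1 −0.25 (adjusted p = 0.3, SE 0.09), without overlap, Crot −0.58 (adjusted p = 0.34, SE 0.22) and Acaa1a −0.22 (adjusted p = 0.35, SE 0.08), both with overlapping groups. HKO chow mouse 2 had the highest levels of its group for Crat and Crot, and without it Crat stood at −0.70 (adjusted p = 0.0038) and Crot at −0.92 (adjusted p = 0.027), 2 calls among the 31 where 2.15% of all genes passed. Without WT chow mouse 3, Crot stood at −0.33 (adjusted p = 0.56) and Ech1 at −0.16 (adjusted p = 0.42). Without HKO chow mouse 1, Hacl1 stood at −0.33 (adjusted p = 0.54). The part of the Adipoq and Muc6 transcripts of HKO chow mouse 2 and of the acute phase genes of WT chow mouse 3 in these values was not tested. In 0 of the 31 genes every HKO chow library lay above every WT chow library, and in 5, Pex10, Abcd2, Ech1, Hacl1 and Crat, below, where 6.86% and 7.39% of all tested genes did so.

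Over both diets the 5 smallest p belonged to Amacr at −0.22 (adjusted p = 0.27, SE 0.07), Crat at −0.23 (adjusted p = 0.3, SE 0.08), Acaa1a at −0.16 (adjusted p = 0.3, SE 0.06), Crot at −0.42 (adjusted p = 0.31, SE 0.16) and Pex11a at 0.20 (adjusted p = 0.34, SE 0.08). Without HKO chow mouse 2 Crat stood at −0.32 (adjusted p = 0.022) and Crot at −0.59 (adjusted p = 0.032), and 1.58% of all genes passed. In 0 of the 31 genes all 6 HKO livers lay above or below all 6 WT livers, where 0.175% and 0.196% of all tested genes did so.

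Whether the genotype difference changed with the diet was tested as an interaction, the HKO over WT log2 fold change on FFD minus that on chow. By edgeR's quasi-likelihood test 0 of the 31 genes passed, and 0 of all genes tested. At an unadjusted p below 0.05 there were 5 of the 31, all with positive values (16.1%, against 9.06% of all tested genes and 4.59% with positive values), and DESeq2 called 1, Pex11a, where it called 0.61% of all genes. The values were 0.63 (adjusted p = 0.27, SE 0.16) for Pex11a, 0.57 (adjusted p = 0.32, SE 0.17) for Crat, 0.71 (adjusted p = 0.36, SE 0.23) for Hacl1, 2.08 (adjusted p = 0.42, SE 0.73) for Abcd2 and 0.32 (adjusted p = 0.46, SE 0.12) for Ech1. The median of the 31 was 0.08, against −0.00730 over all genes, and 23 were above 0, where 48.9% of all genes were. Without HKO chow mouse 2 the interaction of Crat was 0.75 (adjusted p = 0.019). The same WT chow libraries enter the diet comparison in WT mice and the genotype comparison on chow, so the values below 0 of Crat, Hacl1 and Crot in both rest in part on the same 3 livers.

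**Figure D5:**
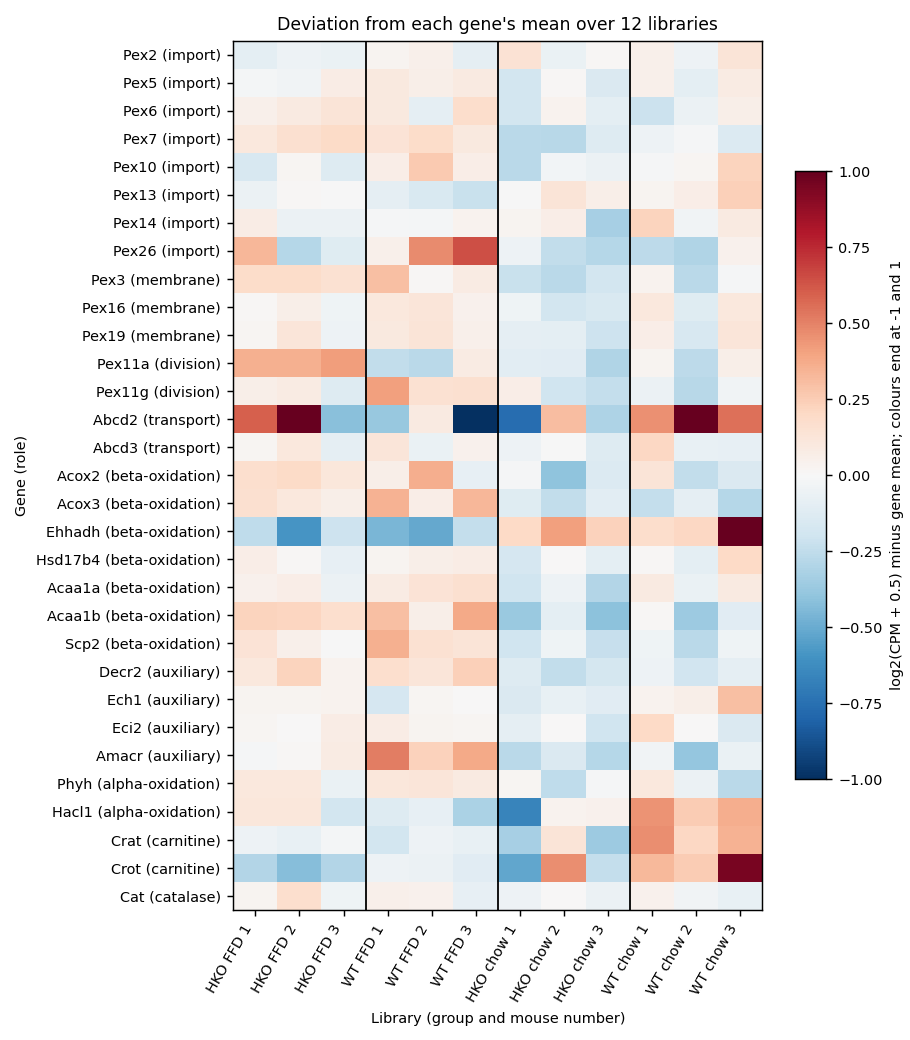
Deviation of each library from the gene's mean over the 12 libraries, as log2(CPM + 0.5), for the 31 genes in order of role; red is above and blue below the mean, and colours end at −1 and 1. The Ehhadh row is blue in all 6 FFD livers, Pex11a is red in the HKO FFD livers, WT chow mouse 3 stands out for Ehhadh and Crot, and HKO chow mouse 2 for Crot.

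Other peroxisomal genes, on lists made beside the 32, also moved with the diet. Of 18 tested genes of peroxisomal oxidation not among the 32, 11 rose and 3 fell over both genotypes, 61.1% and 16.7% against 13.9% and 12.9% of all tested genes, with a median log2 fold change of 0.31. In HKO mice 7 rose and 0 fell, 38.9% against 13.6% in either direction, and in WT mice 5 rose and 1 fell, 33.3% against 14.9%. In HKO mice the smallest p belonged to the peroxisomal thioesterases Acot4, with a log2 fold change of 1.05 (adjusted p = 0.0014, SE 0.16), and Acot3, at 2.15 (adjusted p = 0.0018, SE 0.34); these stand in a family of near copies, so their separate levels are uncertain. In WT mice Nudt7, a hydrolase of coenzyme A, rose, with 1.82 (adjusted p = 0.0017, SE 0.28). Of 9 other assembly genes 3 rose and 1 fell over both genotypes (44.4%, against 26.8% of all tested genes), with a median of 0.00393. Of 11 other oxidases and ether lipid enzymes 4 rose and 0 fell over both genotypes (36.4%, against 26.8%), among them the D-aspartate oxidase Ddo at 0.64 (adjusted p = 0.00019, SE 0.08).

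Genes around PPARalpha outside the peroxisome were divided. Of 8 regulators 2 rose and 1 fell over both genotypes (37.5%, against 26.8% of all tested genes), and Ppara itself, named after its value was seen, had 0.34 (adjusted p = 0.0015, SE 0.06). Of 12 PPARalpha targets outside peroxisomes 2 rose and 4 fell over both genotypes, 16.7% and 33.3% against 13.9% and 12.9% of all tested genes, with a median log2 fold change of −0.29. In HKO mice 3 rose and 1 fell (33.3%, against 13.6%), with a median of −0.00629, and in WT mice 1 rose and 5 fell (50% against 14.9%), with a median of −0.58. The fatty acid hydroxylases Cyp4a14, at −1.92 (adjusted p = 0.00087, SE 0.26) in WT mice, and Cyp4a31, at −1.43 (adjusted p = 0.00011, SE 0.17) over both genotypes, fell; the Cyp4a genes are near copies too. Vnn1, a pantetheinase, rose in HKO mice, with 1.19 (adjusted p = 0.0028, SE 0.20). With the knockout 0 genes of these 5 lists passed edgeR's quasi-likelihood test on either diet or over both. At an unadjusted p below 0.05, 9.34% of all tested genes passed on FFD, 11.8% on chow and 12.2% over both diets. The shares of the PPARalpha targets were 41.7%, 41.7% and 25% in that order, of the regulators 12.5%, 37.5% and 50%, and of the other oxidation genes 16.7%, 33.3% and 5.56%. Those of the other assembly genes were 11.1%, 0% and 11.1%, and of the other oxidases and ether lipid enzymes 27.3%, 9.09% and 18.2%. On FFD DESeq2 called Nudt7 and Acot4 of the 18 other oxidation genes and the kinase gene Pdk4 of the 11 PPARalpha targets it tested. On chow it called Acadm of 11 PPARalpha targets. Over both diets it called Agxt of 11 other oxidases and ether lipid enzymes and Cpt1a of 11 PPARalpha targets. Of all genes it called 0.974%, 0.939% and 1.61% in that order. In the interaction all 12 PPARalpha targets outside peroxisomes had values above 0, with a median of 0.61. By edgeR's test 0 passed, and 6 had an unadjusted p below 0.05 (50%, against 9.06% of all tested genes). DESeq2 called 3 of the 11 targets it tested, where it called 0.61% of all genes. It also called 2 of the 18 other oxidation genes, Acot4 and Acot3. Among the regulators, the other assembly genes and the other oxidases and ether lipid enzymes it called 0. The PPARalpha targets were listed with earlier results of these livers known, so their shared direction is a description. Their FFD and chow values rest on the same 12 livers as those of the 31 genes.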

How the data were processed

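Total RNA of 12 whole livers was sequenced by a service provider. The authors deposited raw read counts per gene, made with STAR and featureCounts 1.5.0-p3 on mm10, per the submitters' processing notes; the annotation release and strand setting are not given in the sources used here. The counts were fitted with edgeR 4.0.16 in R 4.3.3: filterByExpr, TMM scaling and quasi-likelihood tests with 1 mean per group over all 12 libraries, with Benjamini-Hochberg adjustment over 14277 genes and a threshold of 0.05. CPM use TMM-scaled library sizes, and RPKM divide them by the deposited exon length. The SE is the log2 fold change over the root of F. Alternatives were RLE scaling, no filter, 1 CPM in 3 libraries, DESeq2 1.42.0, a replicate block, only the groups compared and leaving out libraries. Scripts were tested on simulated data. No 2 libraries of the same group agreed within sampling noise (chi-square per degree of freedom 9.26 to 39.7). Each comparison names its called genes, or the 5 with the smallest p where fewer than 5 passed. Results of 2 genes of the lists beside the members are not reported here. The members and lists were chosen with earlier results of these data known. Promoters come from RefSeq on GRCm38.p6. Library totals of 12842187 to 24332663 counts limit the precision of genes with few reads.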

Additional observations from a re-analysis of the deposited data

Results flagged for a closer look

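Ech1, the dienoyl-CoA isomerase, had genotype differences of opposite direction on the 2 diets. It had 439, 438 and 439.5 CPM in HKO FFD and 383, 435 and 432 CPM in WT FFD livers. Chow values were 388, 407 and 397 CPM in HKO and 439, 448 and 528 CPM in WT livers. Every HKO liver lay above every WT liver on FFD, by a small margin, and below every WT liver on chow. Of all tested genes 8.08% lay above in this way on FFD and 7.39% lay below on chow. The share of all tested genes with both is not given here, so the pattern is not shown to be particular to Ech1. The interaction was 0.32 on the log2 scale (SE 0.12), adjusted p = 0.46 in edgeR, and the genotype log2 fold changes were 0.07 (adjusted p = 0.84, SE 0.09) on FFD and −0.25 (adjusted p = 0.3, SE 0.09) on chow. The value on FFD was 0.0185 (adjusted p = 0.98) without WT FFD mouse 1, the lowest FFD liver, and that on chow −0.16 (adjusted p = 0.42) without WT chow mouse 3, the highest of all 12. Groups of 3 libraries were too small for a test of single outlying libraries.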

How the results depend on the processing

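Of 1753 values of single genes under alternatives, 1586 kept their direction and side of the threshold, 119 fell short of it, 41 newly passed and 7 reversed, all 7 from values that had not passed. They came from FFD against chow. In HKO mice Pex26 was −0.00473 (adjusted p = 0.99) without HKO FFD mouse 1, the lowest when each library was left out, and at most 0.32. Hacl1 was −0.0202 (adjusted p = 0.94) without HKO chow mouse 1 and at most 0.29, and Crot was 0.0374 (adjusted p = 0.92) without HKO chow mouse 2 and otherwise down to −0.49. In WT mice Pex11a was 0.0404 (adjusted p = 0.89) without both libraries with raised acute phase genes. Over both genotypes Ech1, −0.02 with all libraries, was 0.0109 (adjusted p = 0.91) without both of those, 0.00889 (adjusted p = 0.94) without WT FFD mouse 1, 0.0246 (adjusted p = 0.78) without WT chow mouse 3 and otherwise down to −0.0427. The counts of called members that moved by over 1.5 times were, with no filter on low counts, 2 for HKO against WT on FFD, 3 on chow, 1 over both diets and 3 in the interaction, where 306, 395, 454 and 238 genes passed in all. DESeq2 gave 1 on FFD, 1 on chow and 1 in the interaction, with 139, 134 and 87 genes in all, and 230 genes over both diets. For FFD against chow in WT mice the count was 5 with only the groups compared and 4 without both libraries with raised acute phase genes. Leaving out each library gave 0 to 0 members for HKO against WT on FFD, 0 to 2 on chow, 0 to 2 over both diets, 2 to 6 for FFD against chow in HKO mice, 3 to 11 in WT mice, 8 to 14 over both genotypes and 0 to 1 in the interaction; the cause was not tested. Counts from leaving out libraries, from only the groups compared and from the replicate block stand here without the share of all genes called in the same refits. The totals with no filter on low counts stand without the number of genes tested in that refit. No pairing of the livers by mouse number was seen: correlations of same-numbered deviations were −0.114 to 0.117. These were taken over all tested genes, so they cannot show a pairing that touches only some genes. With the replicate block, 0 members passed for HKO against WT on FFD, on chow and over both diets, 6 for FFD against chow in HKO mice, 7 in WT mice, 11 over both genotypes and 0 in the interaction. With that block the calls of Pex13, Pex26, Acaa1b and Hacl1 in WT mice ended (adjusted p = 0.053, 0.058, 0.074 and 0.061), and those of Pex11a and Crot over both genotypes (adjusted p = 0.057 and 0.07). Eci3 had too few reads to be tested. Abcd2 (1.85 RPKM) ranged from 1.54 to 9.98 CPM within the WT FFD livers, and the part of depth in that spread was not tested.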
